A study of Mus musculus with 6 samples.

Results

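Reg3b, Reg3g, Reg4, Ang4, Retnlb, Saa1, Lcn2, Duox2, Duoxa2 and Nos2 encode secreted antimicrobial proteins and oxidant-producing enzymes of the gut epithelium. These 10 genes were taken by name from the 22354 genes of the deposited count table, and all 10 had enough counts to be tested. The table holds 6 RNA-seq libraries of colon from C57BL/6J mice, all dissected 1 month after tamoxifen. The 3 knockout (KO) mice carry the genotype written Smad4ΔLrig1 and the 3 wild-type (WT) mice are described as SMAD4+ controls. Smad4 transduces TGF-beta and BMP signals. Lrig1 is a marker of intestinal epithelial stem cells; the driver of the deletion in these mice, and their age, are not stated in the labels. EDTA was used to release the crypts, and the layer above the muscle was then scraped off for RNA.

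The epithelium of the gut holds microbes off with proteins released into the mucus and lumen and with oxidants made at its surface. Goblet and deep crypt secretory cells release lectins, ribonucleases and resistin-like proteins, while surface cells make hydrogen peroxide through the dual oxidase and nitric oxide through the inducible synthase. In mouse gut many of these genes are known to be switched on by microbes and by cytokines such as interleukin-22, and Retnlb by interleukin-13.

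Library totals were 21194104 to 22821486 counts in KO and 18918880 to 25867997 in WT. Levels are given as CPM (counts scaled to a common library size) on TMM-scaled library sizes, and 3 counts equal at most 0.161 CPM. Smad4 had 92.0, 102.1 and 59.0 CPM in KO and 131.7, 152.6 and 111.0 in WT; the groups did not overlap, and the log2 fold change of −0.64 ± 0.21 (SE) had an adjusted p of 0.338 in edgeR's quasi-likelihood test. The label of the tissue is stroma, yet 8 epithelial markers summed to 16050 to 18714 CPM in KO and 15880 to 18335 in WT, against 8.22 to 12.9 and 3.35 to 4.82 CPM for 5 fibroblast markers. In bulk RNA, fewer cells of a type and less RNA per cell cannot be told apart. WT replicate 1 stood apart: the distal colon gene Hoxd13 had 16.7, 76.3 and 36.7 CPM in KO and 143.8, 28.3 and 47.2 in WT, and the sum of 5 smooth muscle markers was 15.3, 15.3 and 14.1 in KO and 51.8, 14.7 and 17.3 in WT, replicates 1 to 3. Fold changes with this or another library left out stand beside each gene.

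No defence gene differed between KO and WT at an adjusted p of 0.05. Over all 14180 tested genes edgeR's quasi-likelihood test called 0, that is 0%, and its smallest adjusted p was 0.0958. At an unadjusted p of 0.05 it took 0 of the 10 defence genes and 1211 genes in all, 8.54%. DESeq2 called 0 of the 10 and 336 of 15417 genes, 2.18%. The KO and WT values overlapped for all 10 genes, whereas the groups did not overlap for 1883 genes, 13.3%. Fold changes were positive for 7 of the 10 and for 6657 genes in all, 46.9%, with a median log2 fold change of 0.18 for the 10 and −0.01 for all. The tests of 3 against 3 libraries leave wide intervals, given below for each gene, and a p that misses the threshold does not show that KO and WT had equal levels.

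**Figure D1:**
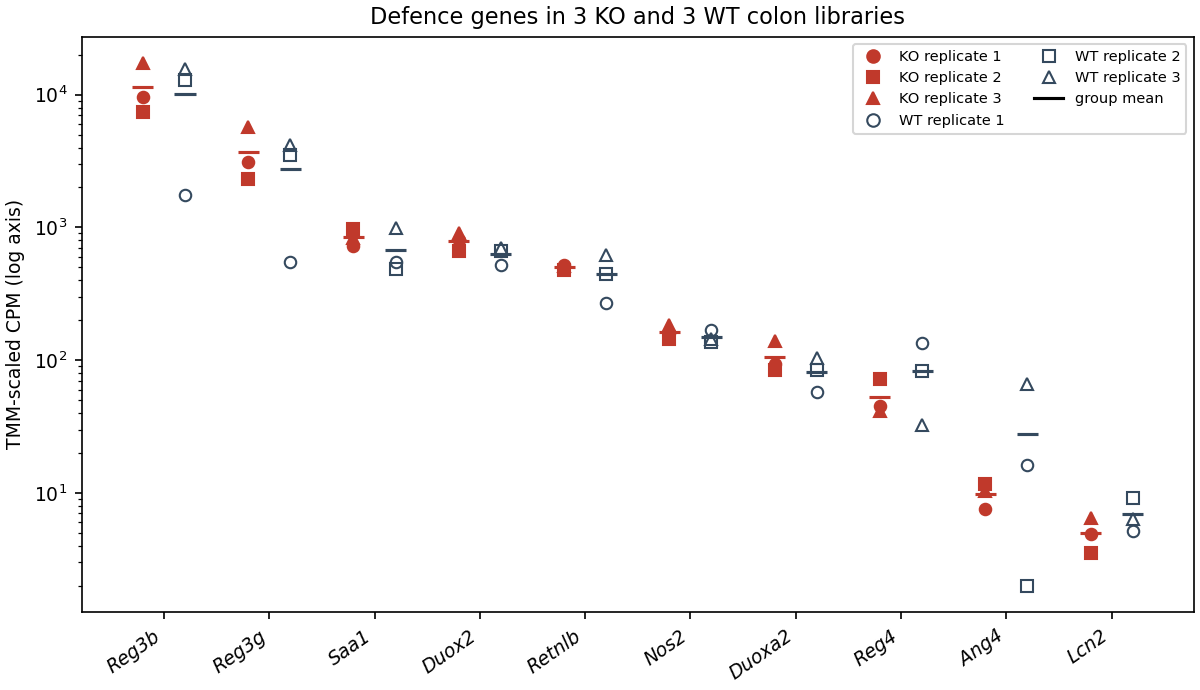
TMM-scaled CPM (log axis) of the 10 defence genes in each of the 3 KO (filled) and 3 WT (open) libraries; symbols give the replicate number and short lines the group means. KO and WT points overlap for every gene, and WT replicate 1 lies far below the other libraries for Reg3b and Reg3g.

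Reg3b and Reg3g encode C-type lectins with bactericidal activity; Reg3g is known to bind the peptidoglycan of Gram-positive bacteria. Both lie on chromosome 6 (mm10, GENCODE M21), Reg3b at chr6:78370657-78373466 on the + strand and Reg3g at chr6:78466269-78468872 on the − strand, with 92802 bases between them. Because their levels moved together over the libraries, the stretch just before each start is shown, from RefSeq on GRCm38.p6, 5′ to 3′ on the gene's own strand. It ends 25 bases before the start. Reg3b is at chr6:78370711-78370860 and Reg3g at chr6:78468899-78469048, and capitals mark runs of at least 6 identical bases, with no gap, in the alignment of these sequences. The Reg3b window lies in an intron of a longer GENCODE transcript, and the Reg3g window lies upstream of the annotated gene.
Reg3b: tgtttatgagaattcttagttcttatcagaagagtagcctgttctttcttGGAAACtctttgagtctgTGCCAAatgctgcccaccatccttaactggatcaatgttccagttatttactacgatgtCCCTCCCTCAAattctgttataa
Reg3g: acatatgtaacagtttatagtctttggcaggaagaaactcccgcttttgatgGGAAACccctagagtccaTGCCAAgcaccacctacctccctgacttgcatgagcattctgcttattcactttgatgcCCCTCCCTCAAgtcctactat
The aligned columns were identical at 93 of 148 positions, 62.8%, and the longest shared run was the 11 bases CCCTCCCTCAA near the start. Of the motifs searched on both strands from 250 bases before to 50 after each start, the STAT motif TTCNNNGAA was found in Reg3b at position −129 as TTCTTGGAA and in Ang4 at position −192 as TTCCCTGAA, counted from the start; it occurs in 8.3% of 32851 promoters of the same length. Promoters were matched for 8 of the 10 genes. Neither the NF-kappaB consensus, in a relaxed form (1.63% of promoters) and a strict form (0.155%), nor the SMAD palindrome GTCTAGAC (0.213%) was in any of the 8 windows. A match in such a window is a description of the letters and says nothing of binding.

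Reg3b was among the most abundant transcripts of the colon libraries. It had 9633, 7388 and 17368 CPM in KO and 1742, 12874 and 15654 CPM in WT. WT replicate 1 lay far below the other 5 libraries, and the other WT libraries lay between KO replicates 1 and 3, so the groups overlapped. Of all counts, Reg3b took 0.988% (95% Wilson interval 0.984 to 0.992%), 0.729% (0.725 to 0.732%) and 1.71% (1.71 to 1.72%) in KO and 0.182% (0.180 to 0.184%), 1.27% (1.26 to 1.27%) and 1.52% (1.51 to 1.52%) in WT, intervals that cover counting error only. It ranked 3, 4 and 2 among all genes in KO and 31, 2 and 1 in WT. The KO mean was 11463 ± 5235 and the WT mean 10090 ± 7362 CPM (SD, n = 3 each), with a log2 fold change of 0.18 ± 0.68 (95% interval −1.40 to 1.77) and an adjusted p of 0.980 in edgeR's test. Without WT replicate 1 the log2 fold change was −0.31, and without KO replicate 3 it was −0.24.

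Reg3g followed Reg3b over the libraries. It had 3111, 2313 and 5681 CPM in KO and 547, 3523 and 4160 in WT, so the same library was lowest and the groups overlapped. Its log2 fold change was 0.43 ± 0.65 (interval −1.08 to 1.94; adjusted p = 0.939, edgeR) with all libraries, −0.05 without WT replicate 1 and −0.01 without KO replicate 3. Reg3g counts were 32.3, 31.3 and 32.7% of Reg3b in KO and 31.4, 27.4 and 26.6% in WT. KO replicate 2 lay just under WT replicate 1, and the log2 ratio differed by 0.18 between KO and WT (exact two-sided permutation p = 0.2; the smallest possible with 3 against 3 is 0.1).

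Reg4, Ang4 and Retnlb are secretory-cell products, set here beside 8 goblet markers (Muc2, Tff3, Clca1, Fcgbp, Spink4, Agr2, Spdef, Ccl6). Reg4, a lectin relative that marks deep crypt secretory cells of mouse colon, lies on chromosome 3 at 98222156 to 98236748. Ang4, an angiogenin-family ribonuclease with microbicidal activity, lies on chromosome 14 at 51763878 to 51773590. Retnlb (RELM-beta), a goblet cell protein that kills Gram-negative bacteria, lies on chromosome 16 at 48816856 to 48818892. The goblet markers summed to 9577, 8855 and 7415 CPM in KO and 9605, 10180 and 10609 in WT. Of the 8, 7 had a negative fold change and 0 were called, while 46.9% of all tested genes had a positive one. Below, log2 ratios to this sum compare means of log2 values, whereas edgeR's fold changes follow group mean counts. The ratio and the fold change of a gene are therefore not on one measure.

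Ang4 varied most. It had 7.54, 11.6 and 10.3 CPM in KO and 16.1, 1.99 and 65.7 in WT, from 164, 245 and 233 counts in KO and 351, 37 and 1647 in WT. The KO values lie between the WT values, of which replicate 3 is by far the highest and replicate 2 the lowest. The log2 fold change of −1.52 ± 0.91 (interval −3.63 to 0.60; adjusted p = 0.769, edgeR) was 0.11 without WT replicate 3. Ang4 relative to the goblet markers differed by −0.17 in log2 ratio between KO and WT (exact permutation p = 0.8). Limma-voom, a test on log2 values, gave −0.58 for Ang4 alone, so the step from −1.52 to −0.17 cannot be credited to the goblet reference alone. The goblet sum, with means of 8616 CPM in KO and 10131 in WT, also enters the ratio. How much of the step each accounts for was not tested. The 3 measured Paneth cell markers summed to 10.2, 11.5 and 8.04 CPM in KO and 6.97, 6.13 and 14.7 in WT, and the alpha-defensin Defa24 had 0 CPM in every KO library and 0.09, 0 and 0.16 in WT.

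Retnlb was the steadiest defence gene among the KO libraries and varied in WT. Its levels were 523, 478 and 515 CPM in KO and 267, 449 and 623 in WT. The KO libraries lie inside the WT range, and WT replicate 1 is lowest. The log2 fold change was 0.18 ± 0.26 (interval −0.43 to 0.79; adjusted p = 0.937, edgeR) and −0.08 without WT replicate 1. Its CPM was 5.47, 5.40 and 6.95% of the goblet marker sum in KO and 2.78, 4.42 and 5.88% in WT, a difference in log2 ratio of 0.50 (exact permutation p = 0.3), and of 0.21 without WT replicate 1.

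Reg4 ran the other way over the libraries. It had 45.2, 72.3 and 41.1 CPM in KO and 134.9, 83.1 and 32.3 in WT, where WT replicate 1 is highest and replicate 3 lowest of all. The log2 fold change was −0.66 ± 0.46 (interval −1.72 to 0.40; adjusted p = 0.816, edgeR) and −0.11 without WT replicate 1. Its CPM was 0.473, 0.818 and 0.556% of the goblet marker sum in KO and 1.41, 0.818 and 0.305% in WT, a log2 difference of −0.24 (exact permutation p = 0.9). Limma-voom gave −0.47 for Reg4 alone.

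Saa1 encodes serum amyloid A, an acute-phase protein that epithelium makes on contact with microbes, and Lcn2 encodes lipocalin 2, which binds bacterial siderophores and so withholds iron. Saa1 (chr7:46740497-46742980) had 719, 976 and 833 CPM in KO and 551, 486 and 993 in WT. WT replicate 3 was the highest library and the other 2 WT libraries the lowest, so KO and WT overlapped; the log2 fold change was 0.32 ± 0.26 (interval −0.29 to 0.93; adjusted p = 0.866, edgeR). With 1 library left out in turn it ranged from 0.12 without WT replicate 2 to 0.70 without WT replicate 3, where the adjusted p was 0.336, and it was 0.19 without WT replicate 1. Of its 51-base stretches 30.9% also occur in Saa2 or Saa3, so the split of reads between these copies is uncertain; Saa2 had 0.690, 0.475 and 0.355 CPM in KO and 0.183, 0.161 and 0.399 in WT, and Saa3 9.19 ± 2.01 in KO and 9.39 ± 5.83 in WT. Lcn2 (chr2:32384633-32388252) was the lowest of the 10 genes, with 4.92, 3.52 and 6.48 CPM in KO and 5.18, 9.19 and 6.38 in WT. KO replicate 3 lay above 2 WT libraries, and the log2 fold change was −0.47 ± 0.28 (interval −1.13 to 0.19; adjusted p = 0.770, edgeR). It ranged from −0.70 without KO replicate 3 to −0.22 without WT replicate 2.

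Duox2, the dual oxidase that makes hydrogen peroxide at the epithelial surface, and Duoxa2, the maturation factor it needs to leave the endoplasmic reticulum, stand head to head on chromosome 2. Duox2 lies at chr2:122279247-122298449 on the − strand and Duoxa2 at chr2:122298900-122302885 on the + strand, with 450 bases between them. The 250 bases before the Duoxa2 start are shown because they lie in that shared interval (RefSeq, GRCm38.p6, chr2:122298650-122298899, + strand), with the short SMAD motif CAGACA in capitals.
Duoxa2 upstream: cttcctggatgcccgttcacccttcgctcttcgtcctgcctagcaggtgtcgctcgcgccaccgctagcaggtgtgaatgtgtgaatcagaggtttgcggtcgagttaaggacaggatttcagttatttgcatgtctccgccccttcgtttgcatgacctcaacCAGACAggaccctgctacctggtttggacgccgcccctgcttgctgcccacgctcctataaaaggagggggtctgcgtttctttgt
CAGACA, on either strand, also occurs within the windows of Lcn2, Duox2 and Saa1, and in 21.0% of all promoters.

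Duox2 had the smallest adjusted p of the 10 genes. Its levels were 801, 665 and 912 CPM in KO and 521, 659 and 700 in WT. KO replicates 1 and 3 were above all WT libraries and KO replicate 2 was between WT replicates 2 and 3, so the groups overlapped. The means were 793 ± 124 in KO and 627 ± 93.8 in WT (SD, n = 3 each), with a log2 fold change of 0.34 ± 0.15 (interval −0.02 to 0.70), an unadjusted p of 0.0592 and an adjusted p of 0.615 in edgeR's test. The log2 fold change was 0.23 without WT replicate 1 and 0.45 without KO replicate 2. Duoxa2 had 93.6, 84.9 and 139.4 CPM in KO and 57.7, 84.4 and 103.0 in WT, with KO replicate 3 highest and WT replicate 1 lowest. Its log2 fold change was 0.38 ± 0.24 (interval −0.19 to 0.94; adjusted p = 0.796, edgeR), 0.14 without KO replicate 3 and 0.18 without WT replicate 1. The log2 ratio of Duox2 to Duoxa2 was 3.10, 2.97 and 2.71 in KO and 3.17, 2.96 and 2.76 in WT, a difference of −0.04 (exact permutation p = 0.8). Of the 51-base stretches of Duoxa2, 41.1% also belong to Duoxa1, which overlaps it on the opposite strand. Strand handling is not given, so reads from those shared stretches cannot be told apart. Duoxa1 itself had 3.31, 3.09 and 6.39 CPM in KO and 2.61, 4.08 and 4.23 in WT.

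Nos2, the inducible nitric oxide synthase, varied least between KO and WT. It lies on chromosome 11 at 78920787 to 78960254 and had 160.7, 143.1 and 182.7 CPM in KO and 168.1, 136.2 and 144.9 in WT. The values interleave, and the log2 fold change was 0.12 ± 0.12 (interval −0.16 to 0.39; adjusted p = 0.899, edgeR), an interval that is the narrowest of the 10. The log2 fold change was 0.032 without KO replicate 3 and 0.21 without WT replicate 1.

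**Figure D2:**
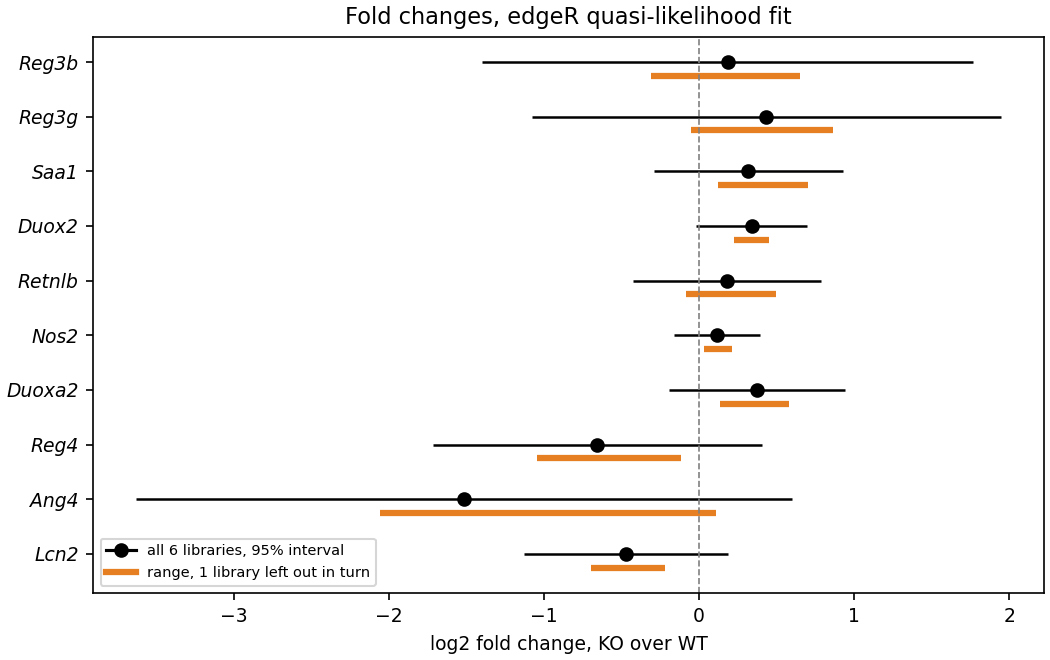
Log2 fold change of KO over WT for the 10 defence genes, with 95% intervals from the edgeR quasi-likelihood fit (black) and the range when each of the 6 libraries was left out in turn (orange). Every interval includes 0, the widest belongs to Ang4 (−3.63 to 0.60) and the narrowest to Nos2 (−0.16 to 0.39).

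Levels were put in order per length of exon (RPKM on TMM-scaled sizes, exon unions of GENCODE M21). Mean levels in KO and in WT were 10038 and 8835 for Reg3b, 1751 and 1298 for Reg3g, 726 and 642 for Retnlb, 340 and 273 for Saa1, 117 and 92.5 for Duox2, 66.6 and 51.3 for Duoxa2, 51.8 and 81.7 for Reg4, 36.8 and 33.9 for Nos2, 13.9 and 39.4 for Ang4, and 1.90 and 2.64 for Lcn2. In KO the ranges of neighbours in this order did not overlap, apart from Duoxa2 with Reg4 and Reg4 with Nos2. In WT the ranges of Reg3b, Reg3g and Retnlb each overlapped that of the next gene, and those of Reg4 and Ang4 each overlapped several others. An exon union that includes long minor transcripts lowers such a level.

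Spread within WT was wider than within KO for 7 of the 10 genes, 70.0%, and for 57.5% of all tested genes. The range over 3 libraries had a median of 0.67 on the log2 scale in KO and 1.13 in WT for the 10 genes, against 0.26 and 0.31 for all tested genes. Within WT, 99.9% of genes had a narrower range than Reg3b and 99.8% than Reg3g, while for Nos2 it was 49.2%. WT replicate 1 was the lowest WT library for Reg3b, Reg3g, Retnlb, Duox2, Duoxa2 and Lcn2 and the highest for Reg4 and Nos2; without it, the range is that between WT replicates 2 and 3, given above.

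Levels of the defence genes were compared across the 6 libraries as correlations of log2 CPM, over 45 pairs. Exact permutation p was adjusted over the pairs, and 0 pairs passed the adjustment. With 6 libraries the smallest possible permutation p is 0.00139 for r and 0.00278 for rho. A single pair at that floor cannot pass over 45 pairs, so a pair that missed the threshold is not thereby shown to be weakly related. Reg3b and Reg3g had r = 0.995 (p = 0.00139, adjusted 0.0626) and rho = 1 (p = 0.00278, adjusted 0.125), and r = 0.983 without WT replicate 1 and KO replicate 3. Duox2 and Duoxa2 had r = 0.943 (p = 0.0181, adjusted 0.146) and rho = 0.943 (p = 0.0167, adjusted 0.188). With KO replicate 3 and WT replicate 1 left out, the 2 libraries farthest from the Duox2 median, r was 0.466. So few libraries over a narrowed range cannot show how far the relation rests on those 2. Reg3b and Retnlb had r = 0.918 (p = 0.0403, adjusted 0.181) and rho = 0.6 (p = 0.242, adjusted 0.519), with r = 0.52 without WT replicate 1 and KO replicate 3. Reg4 and Retnlb had r = −0.923 (p = 0.00278, adjusted 0.0626) and rho = −0.943 (p = 0.0167, adjusted 0.188), and r = −0.958 without WT replicates 1 and 3. Reg3g and Duoxa2 had r = 0.918 (p = 0.00556, adjusted 0.0834) and rho = 0.829 (p = 0.0583, adjusted 0.328), with r = 0.668 without WT replicate 1 and KO replicate 3. Without WT replicate 1 alone, r was 0.961 for Reg3b and Reg3g, 0.864 for Duox2 and Duoxa2, 0.873 for Reg3g and Duoxa2, −0.928 for Reg4 and Retnlb, and 0.423 for Reg3b and Retnlb.

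**Figure D3:**
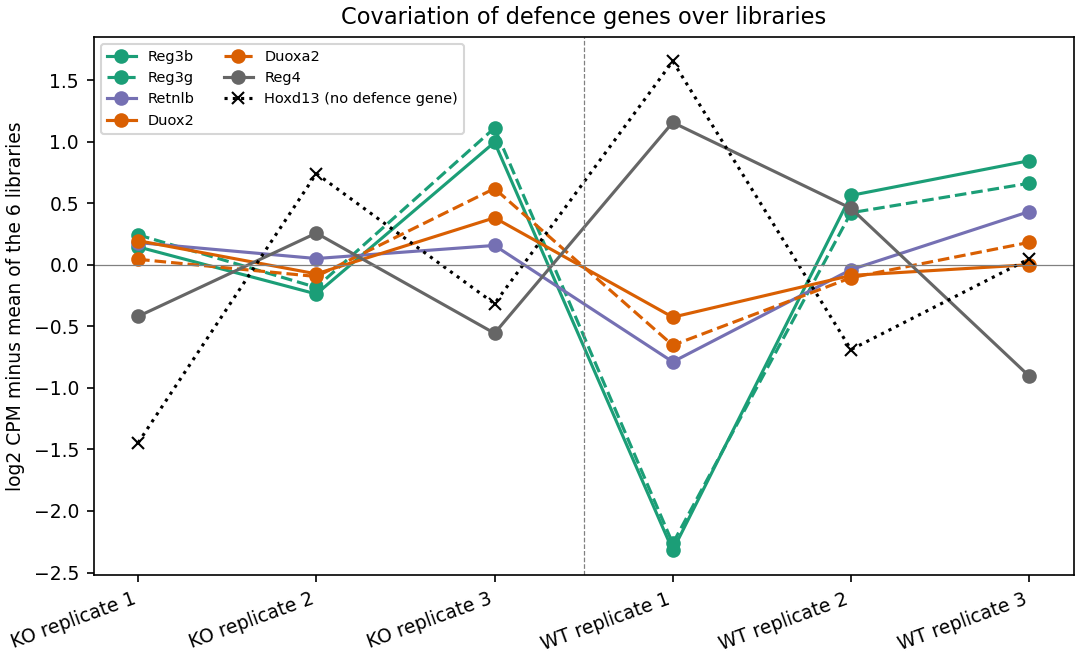
Log2 CPM of 6 defence genes and of Hoxd13 in each library, as the difference from the gene's mean over the 6 libraries; KO replicates are left of the dashed line and WT replicates right of it. Reg3b and Reg3g overlie one another, lowest in WT replicate 1, where Reg4 and Hoxd13 are highest.

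The genes whose levels most resembled 4 of the defence genes, among 12994 genes with a mean of at least 1 CPM, are given by Pearson r over the 6 libraries. For Reg3b they were Rab43 (0.998), Cdc42ep2 (0.996) and Reg3g (0.995). For Retnlb they were Nupr1 (0.994), Gm7092 (0.991) and Atg4a-ps (0.991). For Duox2 they were Rbpms (0.997), Cck (0.989) and Nfam1 (0.987), and for Nos2 Wdr33 (0.992), Zbtb39 (0.982) and Cacna1a (0.981). Over so few libraries and so many genes such values are a description.

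Other NADPH oxidase genes split by the cells known to use them. Nox1, the epithelial oxidase of the colon, had 188, 131 and 176 CPM in KO and 201, 154 and 107 in WT (log2 fold change 0.10 ± 0.23). Cybb, Ncf1, Ncf4 and Rac2, subunits of the phagocyte oxidase, were higher in every KO library than in any WT library: Cybb had 16.2, 15.1 and 6.75 CPM in KO and 3.58, 3.92 and 2.31 in WT, with a log2 fold change of 1.96 ± 0.36. Ncf1 had 1.59 ± 0.31, Rac2 1.23 ± 0.30 and Ncf4 1.02 ± 0.30. Of 10 tested genes in this list edgeR's quasi-likelihood test called 0 (adjusted p of 0.0989 for Cybb, 0.107 for Ncf1, 0.172 for Rac2 and 0.285 for Ncf4), 4 had an unadjusted p under 0.05, against 8.54% of all tested genes, and DESeq2 called 3 (Cybb, Ncf1 and Rac2), against 2.18% of all genes. The 5 B cell markers summed to 95.3, 103.7 and 46.1 CPM in KO and 24.5, 18.5 and 16.8 in WT, and 5 macrophage markers to 27.3, 20.1 and 17.0 in KO and 13.3, 13.3 and 12.9 in WT; the part of these cells in the oxidase subunits was not tested. KO replicate 3 is lowest of the KO libraries for Cybb, Ncf1, Ncf4, Rac2 and both sums.

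**Figure D4:**
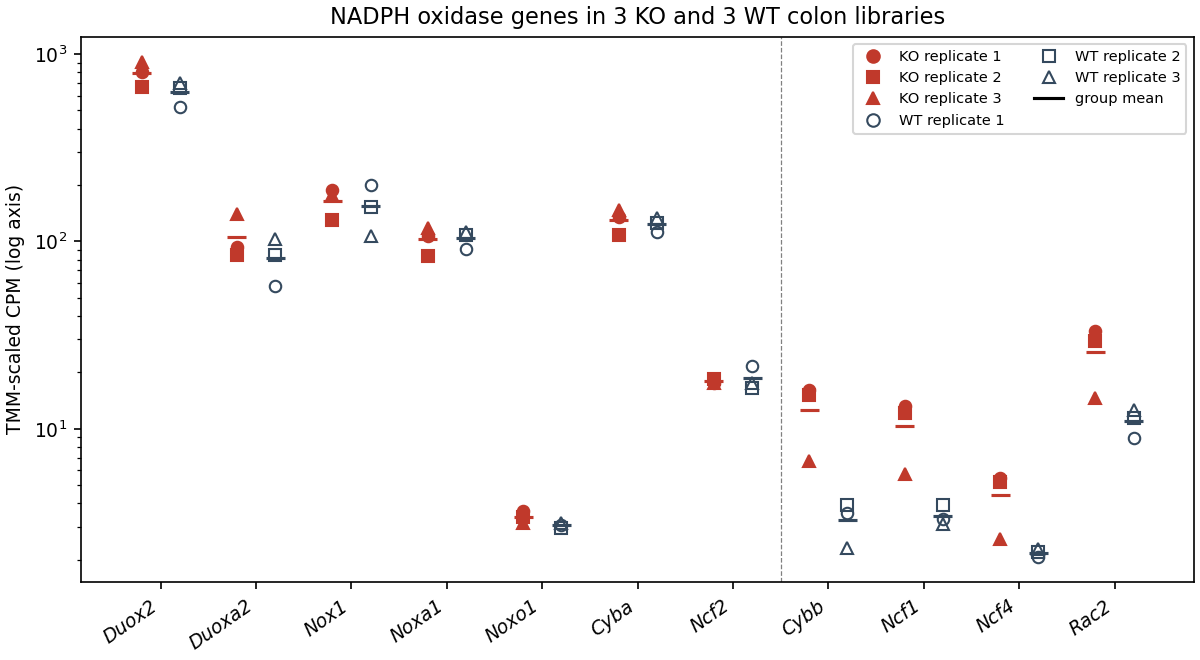
TMM-scaled CPM (log axis) of NADPH oxidase genes in the 3 KO (filled) and 3 WT (open) libraries, with short lines for group means; genes right of the dashed line are Cybb, Ncf1, Ncf4 and Rac2. For these 4 and Noxo1 every KO point is above every WT point, and for the other 6 genes drawn the groups overlap.

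Among other antimicrobial genes no list had a gene called by the quasi-likelihood test. Of 7 tested lectins of the lumen, 3 had positive and 4 negative fold changes; Itln1 (intelectin) had 2.16, 1.57 and 1.60 CPM in KO and 2.52, 2.69 and 7.22 in WT, a log2 fold change of −1.23 ± 0.43 (adjusted p = 0.424, edgeR). Of 12 tested lytic and sequestering proteins 11 had a fold change above 0, against 46.9% of all tested genes. Their median log2 fold change was 0.45, against −0.01 for all. An unadjusted p under 0.05 (edgeR) was found for 2 of the 12, against 8.54% of all tested genes. Lyz2, the lysozyme of myeloid cells, had 47.5, 37.7 and 16.3 CPM in KO and 9.63, 12.8 and 8.97 in WT. Its log2 fold change was 1.69 ± 0.36 (adjusted p = 0.134 with edgeR's quasi-likelihood test, 3.75e-05 with DESeq2). Of 3 tested ribonucleases, Rnase6 had a log2 fold change of 1.85 ± 0.51 (adjusted p = 0.242 with edgeR; 0.0482 with DESeq2). Of 9 tested genes of peroxide removal, Gpx2, an epithelial glutathione peroxidase, had 589, 438 and 735 CPM in KO and 464, 373 and 428 in WT (0.48 ± 0.18 on the log2 scale; adjusted p = 0.507, edgeR). Of 7 tested genes of nitric oxide and arginine metabolism 0 had an unadjusted p under 0.05 (edgeR), against 8.54% of all tested genes. Gch1, which makes the cofactor of nitric oxide synthases, had a log2 fold change of 0.17 ± 0.11.

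Among the genes known to induce the defence genes, transcripts of Il22 and Il17a were near the floor of 3 counts. Il22 had 0.138, 0 and 0.0444 CPM in KO and 0, 0.0537 and 0.0399 in WT. Il17a had 0.230, 0.0950 and 0 in KO and 0.0459, 0.0537 and 0 in WT. For both, KO and WT overlapped. Il17f, too low to be tested, had 10, 3 and 4 counts in KO and 1, 1 and 1 in WT, so its groups did not overlap. Of 12 tested genes of that list 0 were called and 1 had an unadjusted p under 0.05 (edgeR), against 8.54% of all tested genes. Tnf had 7.50, 7.89 and 12.1 CPM in KO and 10.9, 9.99 and 9.61 in WT, and the values interleave. Il1b, the gene with that p, had 2.16, 1.43 and 0.799 CPM in KO and 0.642, 0.484 and 0.399 in WT. Il4ra, the receptor chain for interleukin-4 and interleukin-13, had 128, 108 and 175 CPM in KO and 66.9, 102 and 94.1 in WT; KO and WT did not overlap, and the log2 fold change of 0.65 ± 0.21 had an adjusted p of 0.345 (edgeR). Il13ra1 had a log2 fold change of 0.23 ± 0.11 and Stat6 0.07.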

How the data were processed

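Per the labels, single-end reads of 51 bases were aligned to mm10 by TopHat 2.1.0, counting over genes used HTSeq 0.5.4p5 with samtools 1.3.1, and edgeR 3.4.2 did the testing. Bowtie 0.12.2, with mm8 besides mm10, stands in the submitters' processing notes, and the header of the deposited comparison has DESeq2's column names, so the sources give no single account. No source used here states the strand handling. The 6 library columns are raw counts as deposited. The mean normalised signal, log2 fold change, score columns (standard error and statistic) and p-values were also deposited by the authors and are not printed here.

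Counts were scaled by TMM, filtered with filterByExpr (minimum total count 15) and tested, KO against WT, by quasi-likelihood F test (edgeR 4.0.16 and R 4.3.3), group as the sole term, with Benjamini-Hochberg adjustment over 14180 tested genes and a threshold of 0.05. The scripts were tested on simulated data. Intervals are 95%, 0.1 CPM was added for ratios and correlations, and tests over libraries are exact two-sided permutations. Of 22354 gene IDs, 98.1% were in GENCODE M21. Motifs and alignments used Biopython 1.88.

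The genes and lists were chosen with earlier results of these data known. Named genes were the 10 members, up to 3 genes of each list with the smallest p, Nox1, Saa2 and Saa3, the 3 genes most like Reg3b, Retnlb, Duox2 and Nos2, and Smad4. Duoxa1, Tnf, Il22, Il17a, Il17f, Ncf4, Defa24 and Hoxd13 were shown after their values were seen. Alternatives were other scalings, filters, DESeq2 1.42.0, the exact test, limma-voom 3.58.1, a replicate block and omission of each library. The libraries are labelled as separate mice.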

Additional observations from a re-analysis of the deposited data

How the results depend on the processing

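Of the 10 defence genes, 0 were called under all 15 alternatives. Over all genes the count of calls was 0 under the quasi-likelihood test, 157 with no low-count filter, 336 with DESeq2 and 381 with the edgeR exact test, and 0 to 266 with 1 library left out (266 without KO replicate 3, 17 without WT replicate 1). Of 150 gene and alternative pairs, 144 kept the direction of the fold change and 6 reversed it. With 1 library left out in turn, the log2 fold change ranged from −0.31 to 0.65 for Reg3b, −0.051 to 0.86 for Reg3g, −2.06 to 0.11 for Ang4 and −0.081 to 0.50 for Retnlb, which all change sign, and the cause was not tested. It ranged from −1.05 to −0.11 for Reg4, 0.12 to 0.70 for Saa1, −0.70 to −0.22 for Lcn2, 0.23 to 0.45 for Duox2, 0.14 to 0.58 for Duoxa2 and 0.032 to 0.21 for Nos2. With limma-voom it was −0.58 for Ang4, 0.60 for Reg3b and 0.78 for Reg3g. The log2 ratio ranged from −0.144 to 0.0651 for Duox2 over Duoxa2, −1.50 to 0.958 for Ang4 over goblet markers, −0.839 to 0.262 for Reg4 and 0.212 to 0.751 for Retnlb over the same markers. Same-numbered libraries had correlations, of deviations from group means, of −0.0506, −0.143 and 0.144, and differently numbered ones −0.11 to 0.169. With 3 libraries per group these values cannot show whether same-numbered libraries share a batch, and that was not tested. The fit with a replicate block gave 0 calls over all genes and 0 among the 10. Its log2 fold changes were −0.75 for Ang4, 0.56 for Reg3b and 0.75 for Reg3g. Lcn2 and Ang4 rest on the fewest counts, and the number of mice limits the precision of all 10.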

Other observations

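Slpi and Wfdc2, secreted antiproteases with antimicrobial activity, were highest in the library that is lowest for Reg3b. Slpi had 69.3, 139 and 70.9 CPM in KO and 152, 57.0 and 61.0 in WT, and Wfdc2 62.8, 123.8 and 79.2 in KO and 239.9, 91.6 and 101.4 in WT. In both genes WT replicate 1 was highest and KO replicate 2 second, and KO and WT overlapped. Car1, a carbonic anhydrase of colonocytes, had 2123, 2069 and 2607 CPM in KO and 1170, 5252 and 5418 in WT, with WT replicate 1 lowest and a negative fold change; the other 5 of the 6 colonocyte markers had positive ones, and 0 of the 6 were called. Slpi, Wfdc2 and Car1 were picked with their values known.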
